A study of Mus musculus with 6 samples.

Results

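SNAREs, synaptotagmins and the factors that clear or control them were followed in pancreatic islets after a 24 hour pulse of Sox17. The members were every gene whose symbol marks a syntaxin, a syntaxin-binding protein, a VAMP, a synaptotagmin, a complexin, a DOC2 protein or another named SNARE, NSF or SNAP adaptor, each read from the brightest of its probe sets that carried that symbol alone. This gave 70 genes of the 19937 genes represented on the array. The study asked how Sox17 acts on the secretory pathway of the β cell. The Sox17-GOF group (3 samples) had the Ins2-rtTA driver together with the tetO-Sox17 transgene, so that doxycycline switches Sox17 on where the insulin promoter is active, and the control group (3 samples) had, by its genotype label, the driver without the transgene. All 6 samples were islets of 16 week old mice of C57BL/6 strain, backcrossed from outbred stock, and all had been given doxycycline for 24 hours before isolation. The methods call the samples of a genotype independent biological triplicates, and nothing else in the labels says which animals they came from, so the p-values measure the spread between these samples. Each sample was hybridized to 1 Affymetrix Mouse Gene ST array, and the deposited values are on the log2 scale, where a difference of 1 is a doubling.

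SNARE proteins on a vesicle and on its target membrane zip into a bundle of helices that pulls the membranes together. In β cells the Stx1a and Snap25 pair on the plasma membrane meets Vamp2 on the insulin granule, synaptotagmins sense the calcium that enters after glucose, complexins hold the assembled bundle, and the ATPase NSF with its SNAP adaptors pulls spent bundles apart. Other SNARE sets carry cargo between the ER, the Golgi, endosomes and lysosomes, which is the route proinsulin takes before it reaches a granule.

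Log2 differences (log2 fold changes) are Sox17-GOF minus control, with the standard error (SE) where given. Sox17 was higher in every Sox17-GOF array, at 6.35, 6.22 and 6.36 against 5.50, 5.72 and 5.71 on the control arrays (log2 difference 0.67, SE 0.09, adjusted p = 0.00876 by limma). A two-sided exact permutation test over the samples gave p = 0.10, its floor for 3 samples against 3. Arrays of a group correlated at 0.984 to 0.991. Sox17-GOF replicate 3 stood apart on the second principal component (-26.3, against 17.4 and 13.1 in replicates 1 and 2 of that group), so results are also given without it. The islet hormone genes Ins2, Gcg, Sst and Ppy lay between 12.65 and 13.77 on all arrays, and none of them passed the test. Of 5 β cell markers the glucose transporter gene Slc2a2 was lower (log2 difference -1.01), and of 6 endothelial markers Kdr was (-0.68, adjusted p = 0.0160). The other endothelial markers did not pass. Of these, Pecam1, Cdh5, Cd34 and Plvap lay above 0 (0.37, 0.27, 0.40 and 0.07) and Esam below it (-0.15). Of 3 duct markers measured none passed, but Krt19 was at 6.74, 7.07 and 9.13 on the Sox17-GOF arrays, highest in replicate 3, and at 6.53, 6.30 and 6.16 on the control arrays. Krt7 ran the other way, at 10.26, 10.36 and 10.08 on the Sox17-GOF arrays, lowest in replicate 3, and at 10.54, 10.58 and 10.62 on the control arrays. Sox9 had a log2 difference of 0.21 with overlapping groups. The part of these markers in the results was not tested. Acinar markers were also bright, with 5 of 7 measured, all between 11.79 and 13.89. The sum of their linear signals was 27994 to 54627 in Sox17-GOF and 41045 to 49365 in control islets, the lowest and the highest sum both in the Sox17-GOF group, and none of the 5 passed. In whole islet preparations fewer cells of a type and less RNA per cell cannot be told apart.

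Of the 70 members, Sox17-GOF islets had 2 higher and 7 lower, and 61 did not pass an adjusted p of 0.05 over all 22961 probe sets with a gene symbol. The members called were 12.9% of the list, where 4.93% of all probe sets, or 5.21% when read 1 probe set per gene, were called. By direction, 2.86% of the members were higher beside 2.61% of all probe sets, and 10% were lower beside 2.32%. The higher genes were Syt1, the calcium sensor of fast transmitter release, and Snap25. The lower genes were Syt13 and Syt14, the complexin Cplx2, the syntaxin-binding proteins Stxbp3 and Stxbp4, the ATPase Nsf and its adaptor Napa. The groups did not overlap for 22 of the 70 members (31.4%), against 24.9% of all probe sets. Most members differed little: the median log2 difference was -0.06, against -0.01 over all genes, and 57 of 70 members lay within a fold of 1.3 either way. That is a smaller share than over all genes, where 17894 of 19937 did. By the looser rule of a 1.3-fold difference and an unadjusted p under 0.05, 12 members were called, 5 of them higher, where that rule takes 8.96% of all probe sets. Apart from Syt1, the called members had adjusted p between 0.0180 and 0.0472. Tested among all 34760 probe sets, Syt1 alone passed, and with each array centred on its median 4 members passed. Without Sox17-GOF replicate 3, 4 members were higher (Syt1, Snap25, Syt4 and Vamp7) and 2 lower (Syt13 and Syt14).

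**Figure D1:**
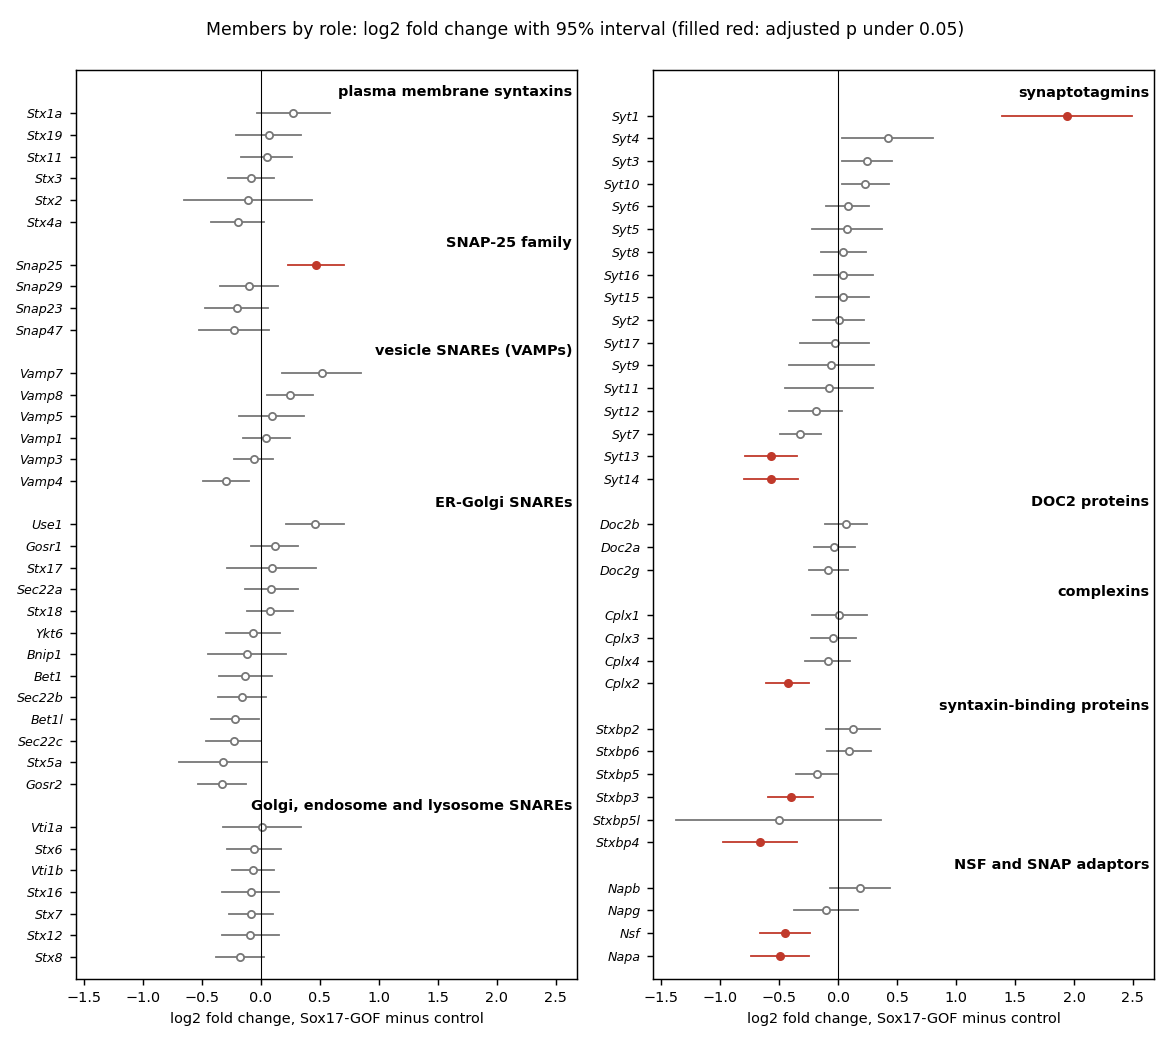
Log2 difference of the 70 members between Sox17-GOF and control islets, 3 arrays per group, grouped by role; points are fitted values, bars are 95% intervals, and filled red points passed an adjusted p of 0.05 from limma. Syt1 at 1.94 lies far to the right of all other members, and the 7 lower genes lie between -0.66 and -0.40.

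Among the 17 synaptotagmins, the calcium sensors and regulators of vesicle fusion, 1 was higher, 2 were lower and 14 did not pass. Syt1 had log2 levels of 8.94, 8.85 and 8.61 on the Sox17-GOF arrays, against 7.25, 7.05 and 6.29 on the control arrays. Every Sox17-GOF array lay well above every control array, and the control arrays were the more spread, with replicate 3 the lowest. The increase was 3.84-fold (log2 difference 1.94, SE 0.24, adjusted p = 0.00539 by limma), and its adjusted p stayed between 0.00387 and 0.0280 with each array left out in turn. Syt1 is one of the neuronal sensors, and so the neuron markers were read beside it: of 4, the 3 measured summed to 280 to 333 linear units in Sox17-GOF and 382 to 408 in control islets. Of these only Th, tyrosine hydroxylase, was lower (log2 difference -0.94). Prph and Chat lay above 0 (log2 differences 0.26 and 0.07) with overlapping groups and did not pass. The part of the neuron markers in the result was not tested.

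Syt13 and Syt14, members of the family whose C2 domains are not thought to bind calcium, were lower by nearly the same amount. Syt13 had 9.51, 9.54 and 9.27 on the Sox17-GOF arrays and 10.09, 9.96 and 9.99 on the control arrays, a 1.48-fold decrease (log2 difference -0.57, SE 0.10, adjusted p = 0.0180). Syt14 had 8.85, 8.57 and 8.74 on the Sox17-GOF arrays and 9.40, 9.25 and 9.22 on the control arrays (log2 difference -0.57, SE 0.10, adjusted p = 0.0200). For both genes all Sox17-GOF arrays were below all control arrays. The call of Syt13 was lost when control replicate 1, 2 or 3 was dropped (adjusted p = 0.0759, 0.0677 and 0.0608). That of Syt14 ended without control replicate 1, 2 or 3 (0.0799, 0.0780 and 0.0549) or Sox17-GOF replicate 2 (0.0563).

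Syt7, the high-affinity calcium sensor used by insulin granules, was just outside the threshold. Its levels were 7.95, 7.89 and 7.84 on the Sox17-GOF arrays and 8.28, 8.18 and 8.18 on the control arrays, without overlap (log2 difference -0.32, 95% interval -0.50 to -0.15, adjusted p = 0.0541, or 0.0465 with 1 mean value per gene). Syt4, which shapes the calcium dependence of release in maturing β cells, read 11.32, 11.06 and 10.66 on the Sox17-GOF arrays and 10.61, 10.45 and 10.72 on the control arrays. Here Sox17-GOF replicate 3 fell among the controls, and the difference did not pass (log2 difference 0.42, 95% interval 0.04 to 0.80, adjusted p = 0.225). Without that array it did (log2 difference 0.59, adjusted p = 0.0446). With any other array left out it did not (adjusted p from 0.276 to 0.468). Syt9, another sensor of insulin granules, had overlapping groups (log2 difference -0.06, 95% interval -0.42 to 0.30). Syt10 and Syt3 did not overlap, with log2 differences of 0.23 and 0.25 and adjusted p of 0.194 and 0.199. The 3 DOC2 proteins, calcium sensors with a like pair of C2 domains, lay between -0.08 and 0.07, and Doc2b, the one studied in insulin release, had 5.33, 5.41 and 5.34 on the Sox17-GOF arrays and 5.38, 5.24 and 5.26 on the control arrays.

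**Figure D2:**
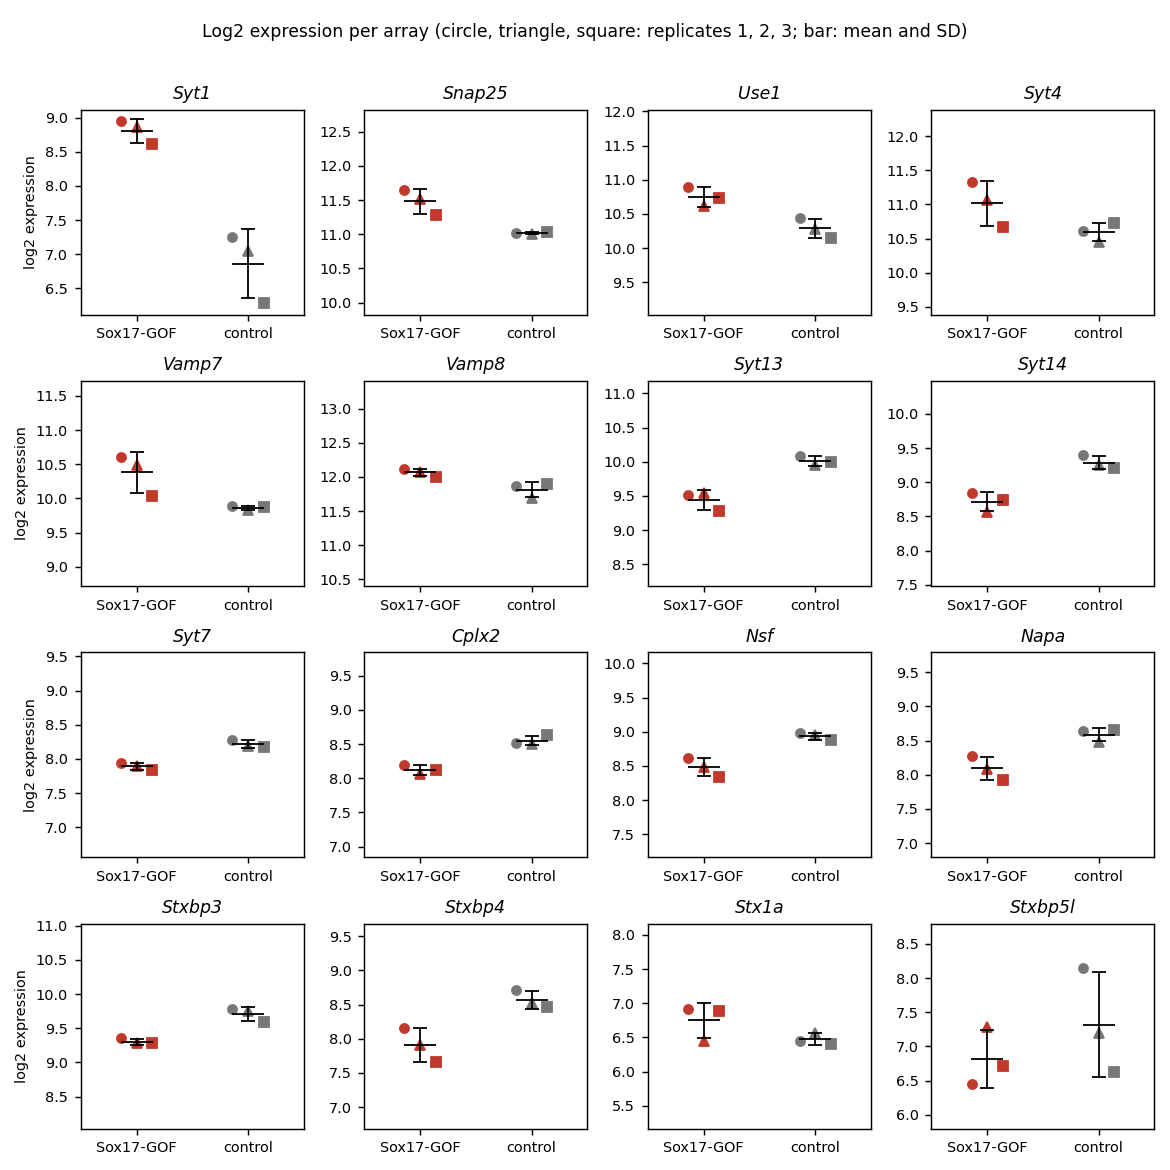
Log2 expression of 16 members on each array (y axis, spanning 3 log2 units in every panel), with Sox17-GOF arrays in red and control arrays in grey; the bar is the mean and SD of 3 arrays. Syt1 shows the widest gap between groups. The Sox17-GOF square (replicate 3) is the lowest of its group for Syt1, Snap25, Syt4, Vamp7 and Vamp8. It is also the lowest of its group for Syt13, Syt7, Nsf, Napa, Stxbp3 and Stxbp4.

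Of the 4 proteins of the Snap25 family, Snap25, which gives 2 of the 4 helices of the granule fusion complex, was higher and the other 3 did not pass. Snap25 had 11.65, 11.52 and 11.28 on the Sox17-GOF arrays and 11.01, 11.00 and 11.04 on the control arrays. The control arrays were nearly level, and all Sox17-GOF arrays were above them. The increase was 1.38-fold (log2 difference 0.47, SE 0.10, adjusted p = 0.0472) and grew on leaving out Sox17-GOF replicate 3 (log2 difference 0.57, adjusted p = 0.0157). Leaving out any other array ended the call: adjusted p was 0.144, 0.154 and 0.121 with control replicate 1, 2 and 3 dropped, then 0.0917 and 0.132 on leaving out Sox17-GOF replicate 1 and 2. Snap23, the widely expressed form, Snap29 and Snap47 had log2 differences of -0.21, -0.10 and -0.23, with overlapping groups.

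The plasma membrane syntaxins, partners of the Snap25 family in the target membrane, held no member that passed among 6. Stx1a, the syntaxin of insulin granule docking, had 6.92, 6.45 and 6.88 on the Sox17-GOF arrays and 6.45, 6.57 and 6.41 on the control arrays. Sox17-GOF replicate 2 fell within the range of the controls (log2 difference 0.28, 95% interval -0.03 to 0.58, adjusted p = 0.317). Stx4a, which acts with Munc18c in insulin release, had a log2 difference of -0.20 (95% interval -0.42 to 0.03). The list of vesicle SNAREs, 6 VAMPs, also held none that passed. Vamp7, a SNARE of lysosomes and of neurite growth, came nearest, with 10.61, 10.49 and 10.04 on the Sox17-GOF arrays and 9.88, 9.83 and 9.88 on the control arrays (log2 difference 0.52, SE 0.14, adjusted p = 0.0937). Without Sox17-GOF replicate 3, the array nearest to the controls, it was higher by 0.69 (adjusted p = 0.00851). On leaving out any other array Vamp7 did not pass (adjusted p from 0.179 to 0.244). Vamp8, a SNARE of exocrine granules and of endosomes, had 12.12, 12.07 and 12.00 on the Sox17-GOF arrays and 11.86, 11.69 and 11.89 on the control arrays, without overlap (log2 difference 0.25, adjusted p = 0.158). The part of acinar cells in the Vamp8 level was not tested. Vamp4, of the trans-Golgi network, ran the other way (log2 difference -0.30, adjusted p = 0.0949). The probe set of Vamp2 also carries the symbol Ubr3 and was not used.

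NSF and α-SNAP, encoded by Nsf and Napa, recycle SNARE bundles after fusion, and both were lower. Nsf had 8.61, 8.49 and 8.35 on the Sox17-GOF arrays, against 8.98, 8.95 and 8.88 on the control arrays, a 1.37-fold decrease (log2 difference -0.45, SE 0.09, adjusted p = 0.0337). Napa had 8.27, 8.08 and 7.93 on the Sox17-GOF arrays, against 8.64, 8.48 and 8.65 on the control arrays, a 1.41-fold decrease (log2 difference -0.50, SE 0.11, adjusted p = 0.0411). In both genes Sox17-GOF replicate 3 was the lowest array and the groups did not overlap. The other 2 adaptors did not pass: Napb, the neuronal β-SNAP, had a log2 difference of 0.18 and Napg, γ-SNAP, of -0.10. Both calls lasted only on leaving out Sox17-GOF replicate 1 (adjusted p = 0.0310 for Nsf and 0.0291 for Napa). For Nsf adjusted p was 0.121, 0.124 and 0.0807 with control replicate 1, 2 and 3 dropped, then 0.0948 and 0.0642 on leaving out Sox17-GOF replicate 2 and 3. For Napa it was 0.141, 0.0905 and 0.127, and 0.114 and 0.0806, in the same order.

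Cplx2, the complexin of neuroendocrine cells, was the member of its family of 4 that passed. It had 8.20, 8.06 and 8.12 on the Sox17-GOF arrays, against 8.52, 8.50 and 8.63 on the control arrays (log2 difference -0.43, SE 0.08, adjusted p = 0.0252). The replicates of each group lay within 0.14 of each other, and the groups were apart. Its call lasted on leaving out Sox17-GOF replicate 1 (adjusted p = 0.0380). It ended without control replicate 1, 2 or 3 (0.0812, 0.0813 and 0.0884) and on leaving out Sox17-GOF replicate 2 or 3 (0.0854 and 0.0533). Cplx1 had a log2 difference of 0.01 (95% interval -0.22 to 0.24). The retinal complexins Cplx3 and Cplx4 had means of 5.13 and 4.20 in Sox17-GOF and 5.17 and 4.29 on the control arrays, and Cplx4 was the only member that averaged less than 4.63 (the 20th percentile over the arrays) in both groups.

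Of 6 syntaxin-binding proteins, 2 were lower and 4 did not pass. Stxbp4, known as Synip, a partner of syntaxin 4, had 8.15, 7.92 and 7.66 on the Sox17-GOF arrays and 8.71, 8.53 and 8.46 on the control arrays, a 1.58-fold decrease (log2 difference -0.66, SE 0.13, adjusted p = 0.0356). A dimmer probe set of Stxbp4 had overlapping groups (log2 difference -0.35, adjusted p = 0.255), and with the mean of its 2 probe sets Stxbp4 did not pass (log2 difference -0.50, adjusted p = 0.0583). Stxbp3, which encodes Munc18c, had 9.35, 9.28 and 9.28 on the Sox17-GOF arrays and 9.78, 9.75 and 9.59 on the control arrays (log2 difference -0.40, SE 0.08, adjusted p = 0.0360). A probe set that also names the pseudogene Stxbp3-ps had a log2 difference of -0.38 without overlap (adjusted p = 0.109), so what the gene and the pseudogene each gave is uncertain. The call of Stxbp4 lasted on leaving out Sox17-GOF replicate 1 (adjusted p = 0.0217) and ended without any other array: 0.127, 0.116 and 0.0777 without control replicate 1, 2 and 3, 0.0985 and 0.0540 on leaving out Sox17-GOF replicate 2 and 3. That of Stxbp3 ended without any array, with adjusted p of 0.130, 0.138 and 0.0511 with control replicate 1, 2 and 3 dropped, then 0.0610, 0.108 and 0.0791 on leaving out Sox17-GOF replicate 1, 2 and 3. The tomosyn gene Stxbp5 did not overlap but did not pass (log2 difference -0.18, adjusted p = 0.238). Its relative Stxbp5l was the member that varied most within a group, at 6.45, 7.28 and 6.72 on the Sox17-GOF arrays and 8.14, 7.19 and 6.62 on the control arrays.

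**Figure D3:**
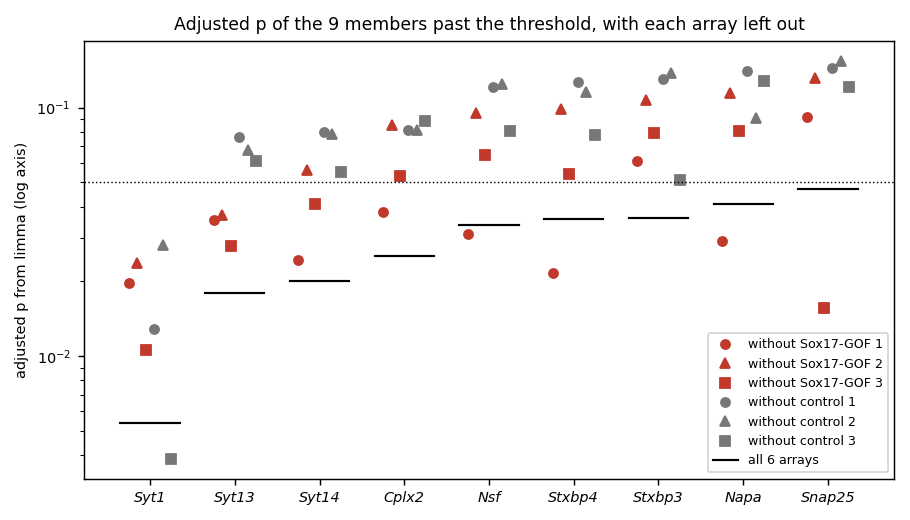
Adjusted p from limma (log axis) of the 9 members past the threshold, with all 6 arrays (black line) and with each array left out (red, a Sox17-GOF array; grey, a control array). Syt1 stays under the dotted line at 0.05 in all 6 cases, Syt13 in 3, Syt14 in 2, Stxbp3 in none and the others in 1.

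The 13 SNAREs that work between ER and Golgi held no member that passed, with log2 differences from -0.33 to 0.46. Use1, a SNARE of Golgi-to-ER return, was at 10.90, 10.62 and 10.74 on the Sox17-GOF arrays and 10.44, 10.28 and 10.16 on the control arrays. The groups did not overlap, and the difference fell just short (log2 difference 0.46, 95% interval 0.21 to 0.71, adjusted p = 0.0561). Over 8 other settings its adjusted p ran from 0.0402 (quantile normalization) to 0.197 (the methods' t-test) and passed in 2 of them. It also passed with 1 mean value per gene (0.0457), and with each array left out it did not pass (0.0745 to 0.170). Stx18, Bnip1 and Sec22b, the SNAREs of the same complex, had log2 differences of 0.07, -0.12 and -0.16, all with overlapping groups. Gosr2, a SNARE of transport into the Golgi, had 9.74, 9.65 and 9.72 on the Sox17-GOF arrays and 10.13, 9.90 and 10.07 on the control arrays, without overlap (log2 difference -0.33, adjusted p = 0.0796). Stx5a, which pairs with it, had a log2 difference of -0.32 with overlapping groups (95% interval -0.70 to 0.05). Among the 7 SNAREs of Golgi, endosomes and lysosomes none passed, with log2 differences from -0.17 (Stx8) to 0.01 (Vti1a). Stx12, of recycling endosomes, had a log2 difference of -0.09, and Vti1b, of late endosomes, had one of -0.07 at levels of 11.24 to 11.42 on the 6 arrays.

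Promoter windows from RefSeq (build GRCm38.p6, 250 bases before to 50 after a start) were found for 57 of the 70 members, including 7 of the 9 that passed but neither Snap25 nor Syt13. They were searched for ACAAT, the core of SOX binding sites, and TGACGTCA, the cAMP response element, each on both strands, with no overlap between the 2 motifs. ACAAT lay in 14 of 70 member windows (20%) and in 31.0% of all 32851 windows. TGACGTCA lay in 3 of 70 (4.29%), those of Napa, Stxbp3 and Gosr2, and in 1.79% of all. The stretches of 100 bases around the matches in Syt1, the member that rose most, in Use1, and in Napa and Stxbp3, which were lower, are shown 5′ to 3′ on the gene's strand with the match in capitals.
Syt1, downstream of its 2 windows, chr10:109009180-109009279, minus strand: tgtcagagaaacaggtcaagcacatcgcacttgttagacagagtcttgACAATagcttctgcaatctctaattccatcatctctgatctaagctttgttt
Use1, upstream of its 2 windows, chr8:71366617-71366716, plus strand: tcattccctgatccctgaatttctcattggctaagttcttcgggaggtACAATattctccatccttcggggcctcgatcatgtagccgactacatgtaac
Napa, chr7:16098490-16098589, plus strand: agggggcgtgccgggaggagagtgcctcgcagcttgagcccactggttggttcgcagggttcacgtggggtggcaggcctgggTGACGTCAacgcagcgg
Stxbp3, chr3:108840557-108840656, minus strand: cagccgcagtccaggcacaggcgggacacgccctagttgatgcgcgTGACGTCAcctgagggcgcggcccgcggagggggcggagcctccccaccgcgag
The match in Syt1 began 120 bases before the start that its window belongs to, and that in Use1 183 bases before. The other Syt1 window and those of Cplx2, Nsf, Stxbp4 and Syt14 held neither set of letters. A match is a description of the letters and not a measured site.

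The proteins that work around the SNAREs were read from a list of 52 genes, all measured. Of these, 3 were higher, 3 were lower and 46 did not pass (11.5% called, beside 4.93% of all probe sets). The exocyst, which tethers vesicles to the plasma membrane, held 2 of the higher genes among 9. Exoc2 had 10.31, 10.07 and 10.04 on the Sox17-GOF arrays, against 9.35, 9.20 and 9.19 on the control arrays, a 1.86-fold increase (log2 difference 0.90, SE 0.10, adjusted p = 0.00396). The groups were wide apart, and the call lasted with each array left out (adjusted p up to 0.0285). Exoc5 had 9.27, 9.19 and 8.81 on the Sox17-GOF arrays and 8.53, 8.57 and 8.48 on the control arrays (log2 difference 0.56, adjusted p = 0.0471). Its call held only on leaving out Sox17-GOF replicate 3, its lowest Sox17-GOF array (adjusted p = 0.00752), with adjusted p of 0.141, 0.136 and 0.137 with control replicate 1, 2 and 3 dropped, then 0.101 and 0.135 on leaving out Sox17-GOF replicate 1 and 2. The third was Cadps2, which helps prime dense-core granules, at 8.91, 9.03 and 8.47 on the Sox17-GOF arrays and 7.79, 7.35 and 7.56 on the control arrays. Rab27a, a GTPase of granule docking, had 10.22, 10.21 and 9.98 on the Sox17-GOF arrays, against 10.67, 10.63 and 10.68 on the control arrays (log2 difference -0.52, adjusted p = 0.0190). Its call ended without control replicate 1, 2 or 3 (0.0759, 0.0764 and 0.0692). The other lower genes were Rimbp2 and Pclo, which encode active zone scaffolds, both with a log2 difference of -0.90.

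**Figure D4:**
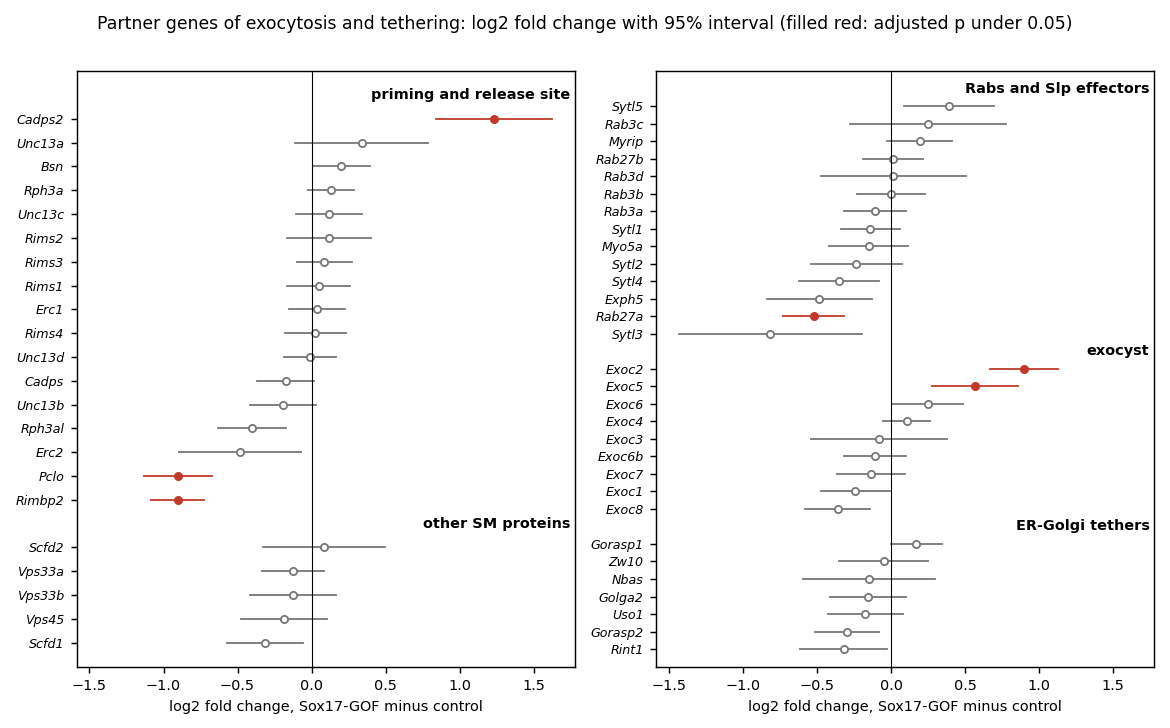
Log2 difference of 52 partner genes of exocytosis and tethering between Sox17-GOF and control islets, 3 arrays per group, with 95% intervals; filled red points passed an adjusted p of 0.05 from limma. Cadps2, Exoc2 and Exoc5 lie above 0, and Rimbp2, Pclo and Rab27a below it.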

How the data were processed

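Islet RNA, amplified with a NuGEN kit and labelled with biotin, was hybridized to Affymetrix Mouse Gene ST chips. The authors deposited log2 values from RMA (background correction, quantile normalization, median polish); the methods name GeneSpring and the submitters' processing notes Affymetrix Expression Console. Of 34760 probe sets, 22961 had a gene symbol in the platform annotation, 1321 of them several symbols, which were not used to name a gene. All 70 members matched RefSeq (GRCm38.p6) by Entrez ID under the same symbol. Sox17-GOF was compared with control with limma (version 3.58.1, lmFit then eBayes, under R 4.3.3) and Benjamini-Hochberg adjustment over the 22961. No array or dim probe set was left out, and the procedure was tested on simulated arrays. The number of arrays limits the precision.

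The members and lists were chosen with earlier results of these data known. The genes named are members past the threshold, Snap25, Use1, Syt4, a fixed core of granule fusion genes, the 2 largest changes of each role group, the 5 brightest and 5 dimmest members, and partner genes past the threshold; others named with a value were chosen after it was seen. Alternatives changed the variance model (a trend on intensity, weights for arrays, the replicate number as block), the scaling (median centring, quantiles), the probe sets (every one, without dim ones, averaged per gene), the threshold, the test (the methods' t-test) and the arrays, each omitted once.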

Additional observations from a re-analysis of the deposited data

How the results depend on the processing

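The number of members that passed was 9 (2 higher and 7 lower). It was 4 with median centring (1 higher and 3 lower) and 1 with all probe sets tested. By the methods' t-test after Benjamini-Hochberg adjustment it was 0, and with an array left out between 1 and 7. At an adjusted p of 0.10 from limma it was 14 (4 higher and 10 lower). The share of all probe sets at 0.10 was not counted, so the 14 cannot be set beside it. At an unadjusted p under 0.05, limma counted 20 of the 70 members, beside 3923 of all 19937 genes. With quantile normalization 11 members passed, of which 4 were higher and 7 lower. Over all probe sets with a gene symbol, 1196 passed with quantile normalization and 932 with median centring. The 1133 changed probe sets became 558 with all probe sets tested, 71 by the methods' t-test, 2057 by the 1.3-fold rule with unadjusted p, and 385 to 1020 with an array left out. Same-numbered samples did not deviate together (correlations of 0.05, -0.02 and -0.04), and the replicate block gave 720 probe sets and 4 members (1 higher and 3 lower). Sox17 kept its call in all of these except the methods' t-test (log2 difference 0.67, adjusted p = 0.0906), and so did Syt1 (adjusted p = 0.118). The median log2 difference of the members stayed between -0.07 and -0.03. No named gene past the threshold changed direction under these alternatives.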
